A study of Mus musculus with 18 samples.

Results

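The genes described here encode 7 inhibitory receptors of T cells: Pdcd1 (PD-1), Tigit, Ctla4, Havcr2 (TIM-3), Lag3, Klrg1 and Btla. They were chosen by name, as the rows for these symbols in the normalized expression table, and all 7 were found among the 37991 genes of the matching count table. All 7 also passed the filter on low counts that left 12445 genes for testing. Their identifiers are ENSMUSG00000026285 for Pdcd1, ENSMUSG00000071552 for Tigit, ENSMUSG00000026011 for Ctla4, ENSMUSG00000020399 for Havcr2, ENSMUSG00000030124 for Lag3, ENSMUSG00000030114 for Klrg1 and ENSMUSG00000052013 for Btla.

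The study compared stages of regulatory T cells (TR), the Foxp3-expressing CD4+ T cells that restrain immune responses, by whether a reporter for Id3 was on. The mice were 3 littermates (84, 86 and 87) on a C57BL/6 background with the genotype Id3-GFP x Foxp3-mRFP, so every group carries both reporters. From the spleen and the peripheral lymph nodes of each mouse, 3 populations were sorted: central TR with the reporter on and CD62L high and CD44 low (Id3+ cTR), effector TR with the reporter on and CD62L low and CD44 high (Id3+ eTR), and effector TR without the reporter (Id3- eTR), for which the labels state no CD62L or CD44 gate. Each of the 18 libraries was made from 500 cells and amplified cDNA, which gives 6 groups of 3 mice, and ages were not given in the sources used here. A library holds many cells, so more cells expressing a gene and more RNA per cell cannot be told apart in any value below.

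Inhibitory receptors lower the response of a T cell when they meet their ligands. CTLA-4 binds CD80 and CD86 more tightly than the costimulatory receptor CD28 does, and in TR it also strips those ligands from antigen-presenting cells. TIGIT competes in the same way with CD226 for the poliovirus receptor PVR, PD-1 binds PD-L1 and PD-L2 and recruits phosphatases, TIM-3 binds galectin-9 and CEACAM1, LAG-3 binds MHC class II, KLRG1 binds cadherins and BTLA binds the TNF receptor family member HVEM. In TR, CTLA-4 is made constitutively under Foxp3, while TIGIT and KLRG1 are known as markers of effector and late effector cells. Id3 blocks the DNA binding of E proteins, which recognise the E-box word CANNTG.

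Because the populations were split by an inhibitor of E proteins, the 250 bases before the start site were read for E-boxes. RefSeq windows (build GRCm38.p6) matched 5 of the 7 genes: Pdcd1, Tigit, Ctla4, Havcr2 and Btla. The word CANNTG, which reads the same on both strands, stood once in the windows of Tigit, Ctla4 and Btla and in neither of the other windows. Of 32851 promoter windows of the same length, 66.2% held it. The 3 windows with a match are shown 5′ to 3′ on the gene's strand, with the E-box in capitals.
Tigit, chr16:43664185-43664434, minus strand: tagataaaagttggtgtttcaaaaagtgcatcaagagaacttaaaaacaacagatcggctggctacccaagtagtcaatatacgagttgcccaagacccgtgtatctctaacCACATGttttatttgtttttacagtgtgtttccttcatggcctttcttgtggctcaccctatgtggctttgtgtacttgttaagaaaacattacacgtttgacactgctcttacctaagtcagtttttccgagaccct
Ctla4, chr1:60908775-60909024, plus strand: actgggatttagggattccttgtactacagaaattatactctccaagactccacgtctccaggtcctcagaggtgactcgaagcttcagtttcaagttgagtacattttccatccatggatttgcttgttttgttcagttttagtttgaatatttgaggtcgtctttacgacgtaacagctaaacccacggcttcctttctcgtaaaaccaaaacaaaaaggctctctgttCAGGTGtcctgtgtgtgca
Btla, chr16:45224087-45224336, plus strand: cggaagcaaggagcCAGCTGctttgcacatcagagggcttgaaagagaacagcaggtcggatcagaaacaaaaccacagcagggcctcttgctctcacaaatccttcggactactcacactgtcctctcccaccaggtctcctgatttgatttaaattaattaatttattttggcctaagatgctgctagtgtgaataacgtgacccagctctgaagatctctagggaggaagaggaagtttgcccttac
The Tigit word CACATG began 138 bases before the start, the Ctla4 word CAGGTG 19 bases before it and the Btla word CAGCTG 236 bases before it. CAGGTG stood in 17.2% and CAGCTG in 13.0% of all windows. The bases just after the RefSeq start matched a GENCODE M21 transcript for Pdcd1, Ctla4 and Btla but not for Tigit and Havcr2, whose windows therefore rest on RefSeq alone. These 3 genes followed different patterns across the populations, as the values below show.

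Each level is the count relative to the scaled library total (CPM, with TMM scaling), for mice 84, 86 and 87 in that order. Library totals ran from 1600782 to 3153325 counts. The 2 lowest totals were those of the spleen Id3+ cTR libraries of mice 84 and 87, and the highest was that of the spleen Id3+ eTR library of mouse 84. These 3 spleen libraries stood apart from the rest, so results that rest on them are also given without them. Leaving them out keeps only mouse 86 in spleen Id3+ cTR, and mice 86 and 87 in spleen Id3+ eTR. A call lost in that fit may come from the smaller number of libraries alone, which the fit cannot tell apart from an effect of the 3. Id3 itself was at 204 to 306 CPM in every library sorted with the reporter on and at 45.3 to 83.7 CPM in every library sorted without it, and Foxp3 was at 237 to 374 CPM in all 18 libraries. A gene was called changed at a Benjamini-Hochberg adjusted p under 0.05 over all genes tested in an edgeR quasi-likelihood model of the 6 groups.

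Over the whole span from Id3+ cTR to Id3- eTR, Pdcd1, Tigit, Ctla4, Havcr2 and Klrg1 rose in both tissues, Btla fell in spleen, and Lag3 did not pass the test in either. In spleen 6 of the 7 genes were called (5 higher, 1 lower), where 12.3% of all tested genes were called. In lymph node 5 of 7 were called, all higher, where 12.9% of all tested genes were called. The median fitted log2 difference of the 7 genes was 3.06 in spleen and 3.14 in lymph node, and that of all tested genes was 0.00 in both. The median of the 7 was in both tissues the value of Lag3, which had few counts and was not called. The genes differed in the stage at which they rose, as the plot of levels by library shows.

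**Figure D1:**
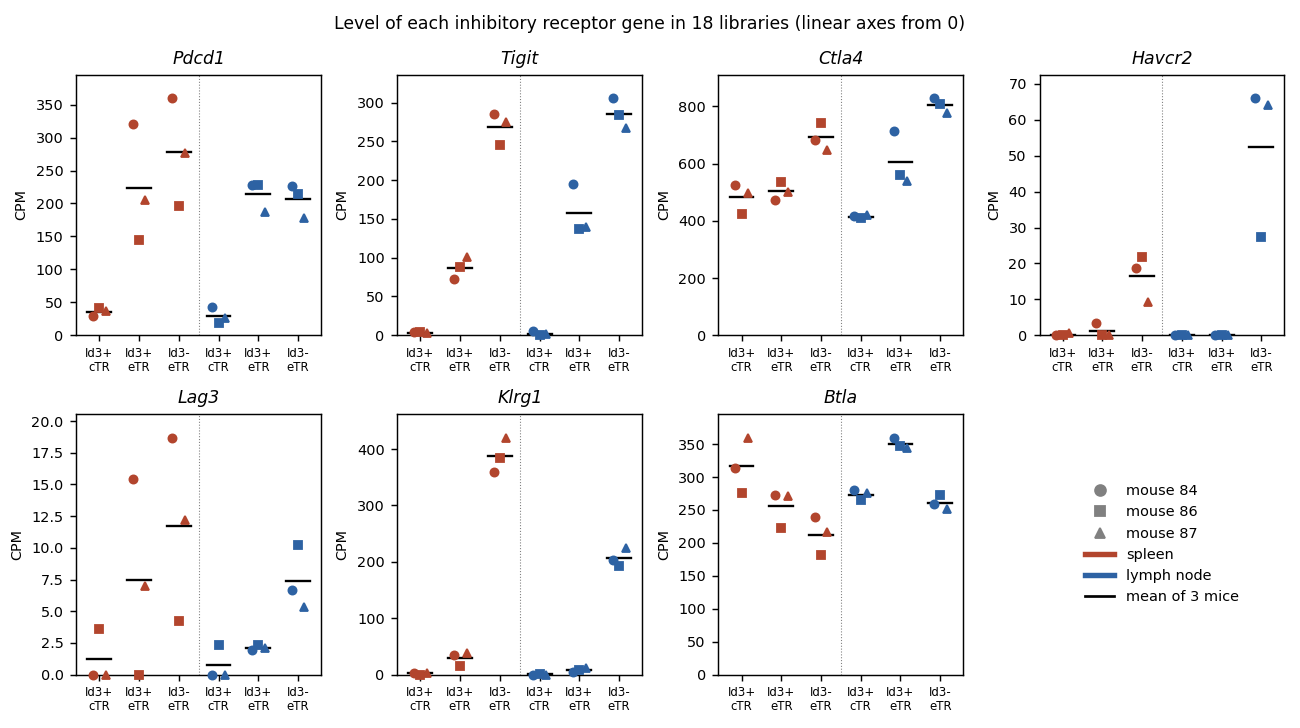
Level of each of the 7 genes in CPM (linear axis from 0) in every library, by population and tissue. Symbols mark the mice, colours the tissues and bars the mean of 3 mice. Pdcd1 was already high in Id3+ eTR, Klrg1 and Havcr2 were highest in Id3- eTR (Klrg1 at 193 to 421 CPM there), Ctla4 started at 408 CPM or more and Btla had no large range.

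Pdcd1, whose product recruits phosphatases to the antigen receptor complex, rose at the first step and had no called change at the second. The spleen values were 29.3, 40.8 and 36.4 CPM in Id3+ cTR, then 321, 144 and 205 CPM in Id3+ eTR, and finally 360, 196 and 277 CPM in Id3- eTR. In lymph node the values were 43.5, 17.9 and 26.6 CPM, then 227, 228 and 187 CPM, then 227, 214 and 178 CPM. Every effector library was above every central one, while the effector populations overlapped in both tissues. The first step was 2.64 ± 0.32 (log2, SE) in the spleen (adjusted p = 0.000172) and 2.87 ± 0.32 in the lymph node (adjusted p = 2.55e-05), higher in 3 of 3 mice in each. The second step was 0.31 ± 0.28 in the spleen (adjusted p = 0.64) and -0.05 ± 0.28 in the lymph node (adjusted p = 0.977). The spleen Id3+ eTR library of mouse 84 gave the highest Pdcd1 of its group, and without the 3 spleen libraries that stand apart the first step in spleen was 2.10 with an adjusted p of 0.0683. From high to low the group means ran from spleen Id3- eTR (278 CPM) over spleen Id3+ eTR (224), lymph node Id3+ eTR (214) and lymph node Id3- eTR (206) to spleen Id3+ cTR (35.5) and lymph node Id3+ cTR (29.3). Of 6 markers of conventional helper cells, which also make PD-1, the summed level was 103 to 122 CPM in spleen Id3+ cTR and 129 to 178 CPM in spleen Id3+ eTR, and 86.6 to 103 CPM and 206 to 273 CPM in lymph node, with Ifng and Il4 called higher at the first step in both tissues and Cd40lg in lymph node, and the part of such cells in the Pdcd1 difference was not tested. The only neighbours in the order of means whose libraries did not overlap were the lowest effector group and the higher central group.

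Tigit, the receptor that competes for PVR, rose at both steps and from a very low start. The central libraries held 20 Tigit counts in all in spleen and 18 in lymph node. In spleen it was at 3.901, 3.996 and 2.47 CPM in Id3+ cTR, then 72.0, 87.9 and 101 CPM in Id3+ eTR, and finally 285, 245 and 275 CPM in Id3- eTR. Lymph node libraries held 4.92, 0.661 and 1.07 CPM, then 195, 138 and 140 CPM, then 306, 284 and 268 CPM. No 2 populations of a tissue overlapped. The whole difference was 6.23 ± 0.34 (log2, SE) in the spleen (adjusted p = 2.21e-09) and 7.03 ± 0.34 in the lymph node (adjusted p = 5.6e-10), in 3 of 3 mice each. The second step was 1.63 ± 0.23 in the spleen (adjusted p = 0.000443) and 0.86 ± 0.22 in the lymph node (adjusted p = 0.0468). That lymph node call did not hold with mouse as a replicate block (adjusted p = 0.0534), and leaving out any 1 Id3- eTR library, or the Id3+ eTR library of mouse 86 or of mouse 87, gave adjusted p of 0.103 to 0.21. Among the 6 groups, lymph node and spleen Id3- eTR overlapped at the top (means 286 and 268 CPM) and the central groups overlapped at the bottom, while lymph node Id3+ eTR (157 CPM) and spleen Id3+ eTR (86.9 CPM) each stood clear of their neighbours.

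Ctla4, which takes CD80 and CD86 from other cells, was abundant in every population and changed by less than any other receptor that rose. Spleen libraries held 525, 423 and 498 CPM in Id3+ cTR, then 473, 537 and 502 CPM in Id3+ eTR, and finally 682, 743 and 649 CPM in Id3- eTR. Its lymph node levels were 416, 408 and 421 CPM, then 712, 560 and 539 CPM, then 828, 808 and 778 CPM. The spleen Id3+ populations overlapped, the spleen Id3- eTR libraries lay above them, and in lymph node no populations overlapped. The whole difference was 0.52 ± 0.10 (log2, SE) in the spleen (adjusted p = 0.00243) and 0.96 ± 0.10 in the lymph node (adjusted p = 6.63e-06). The first step was 0.07 ± 0.10 in the spleen (adjusted p = 0.782) and 0.54 ± 0.10 in the lymph node (adjusted p = 0.00379), and the difference between the tissues in this step was 0.47 ± 0.15 and not called (adjusted p = 0.385, or 0.0326 by DESeq2). The second step was 0.46 ± 0.10 in the spleen (adjusted p = 0.0186) and 0.42 ± 0.10 in the lymph node (adjusted p = 0.0392). These second-step calls did not hold in several refits. A fit of the compared groups alone gave an adjusted p of 0.112 in spleen and 0.0983 in lymph node. In spleen the adjusted p was 0.0564 without the Id3+ eTR library of mouse 84 and 0.0909 without the Id3- eTR library of mouse 86. It was 0.0589 without the 3 spleen libraries that stand apart. For lymph node it was 0.0784 to 0.198 without any 1 Id3- eTR library, or without the Id3+ eTR library of mouse 86 or of mouse 87. The most counted gene of a library reached only 3306 to 4706 counts, and Ctla4, at a mean of 633 counts per kb of exon, ranked 45th of 25557 genes by density, at the upper end of these libraries' range. The part of this in the small Ctla4 differences was not tested.

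Havcr2, which encodes TIM-3, was found almost only in Id3- eTR. The spleen values were 0, 0 and 0.617 CPM in Id3+ cTR (1 count in all), 3.35, 0 and 0 CPM in Id3+ eTR (10 counts, all in mouse 84), and 18.7, 21.7 and 9.38 CPM in Id3- eTR (125 counts). In lymph node no Havcr2 count was found in any of the 6 Id3+ libraries, and Id3- eTR held 66.0, 27.4 and 64.2 CPM (423 counts). Set against a floor of 3 counts over a group, lymph node Id3- eTR was at least 148-fold higher than Id3+ cTR (adjusted p = 0.00044) and at least 132-fold higher than Id3+ eTR (adjusted p = 0.00219). In spleen the ratio of Id3- eTR to Id3+ cTR was 91.0, with a 95% counting interval of 16.0 to 3621 (adjusted p = 0.00704). The spleen difference between the effector populations, 12.9-fold, was not called (adjusted p = 0.0552), and without the Id3+ eTR library of mouse 84 its adjusted p was 0.00558. DESeq2 and limma-voom also called it (adjusted p = 0.00475 and 0.0458). Counting intervals cover counting error only, since reads without molecular identifiers are not independent molecules.

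Lag3, the MHC class II receptor, had few counts and was called in none of the comparisons. In spleen it was at 0, 3.60 and 0 CPM in Id3+ cTR, then 15.4, 0 and 6.995 CPM in Id3+ eTR, and finally 18.7, 4.24 and 12.2 CPM in Id3- eTR. The lymph node values were 0, 2.31 and 0 CPM, then 1.91, 2.32 and 2.08 CPM, then 6.68, 10.2 and 5.35 CPM. The lymph node Id3- eTR libraries lay above all Id3+ libraries of that tissue, while the spleen effector populations overlapped. The whole difference was 3.06 ± 1.36 (log2, SE) in the spleen (adjusted p = 0.17) and 3.14 ± 1.38 in the lymph node (adjusted p = 0.164). The central groups held 9 Lag3 counts in spleen and 7 in lymph node. Mouse 84 gave 46 of the 64 Lag3 counts of spleen Id3+ eTR, in the library with the highest total.

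Klrg1, a cadherin receptor, rose at both steps in both tissues. Spleen libraries held 2.60, 0 and 3.08 CPM in Id3+ cTR, then 33.8, 15.5 and 38.1 CPM in Id3+ eTR, and finally 359, 385 and 421 CPM in Id3- eTR. Lymph node libraries held 0, 0.661 and 0 CPM (2 counts), then 3.82, 7.73 and 12.1 CPM, then 203, 193 and 224 CPM. No populations overlapped within a tissue, and among all 6 groups only the central ones did. The whole difference was 7.86 ± 0.52 (log2, SE) in the spleen (adjusted p = 2.98e-08), and 878-fold in lymph node with a 95% counting interval of 243 to 7260 (adjusted p = 2.995e-08). The first step was 4.13 ± 0.58 in the spleen (adjusted p = 0.000604) and 35.3-fold in lymph node (interval 9.38 to 298, adjusted p = 0.00241). A fit of these spleen groups alone gave an adjusted p of 0.0506 for the first step, and limma-voom gave 0.0682 in lymph node. The second step was 3.73 ± 0.35 in the spleen (adjusted p = 1.08e-05) and 4.66 ± 0.40 in the lymph node (adjusted p = 2.91e-06), higher in 3 of 3 mice in each tissue.

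Klrg1 is also a marker of natural killer and CD8 T cells, so their markers are given beside it. The summed level of 10 such genes was 89.9 to 175 CPM in spleen Id3+ cTR and 359 to 390 CPM in spleen Id3- eTR, and 88.6 to 137 CPM against 240 to 332 CPM in lymph node. For lymph node Id3+ eTR the sum was 187 to 416 CPM. Of the 7 tested, Nkg7 and Ccl5, which activated T cells also make, were called higher over the whole span in both tissues and made up most of the sum in Id3- eTR (means 147 and 173 CPM in spleen). Gzma, a granule protease, was called higher at the spleen second step, with means of 2.52, 0.45 and 15.8 CPM in Id3+ cTR, Id3+ eTR and Id3- eTR of spleen. In lymph node Gzma was called neither at a step nor over the whole span. Klrb1c, the NK1.1 gene, was at 0 in Id3+ cTR and averaged 9.82 and 2.75 CPM in the Id3+ and Id3- eTR of spleen and 3.91 and 1.85 CPM in those of lymph node. Klre1 was at 0 in every Id3+ library and averaged 0.47 CPM in spleen and 1.97 CPM in lymph node Id3- eTR, and Ncr1 and Klra8 were at 0 in all 18 libraries. Mean Cd8a was 22.0 CPM in Id3+ cTR and 5.65 CPM in Id3- eTR of spleen, and 4.22 and 6.38 CPM in those of lymph node. Mean Cd8b1 was 49.1 and 27.9 CPM, and mean Prf1 10.5 and 3.92 CPM, in Id3+ cTR and Id3- eTR of spleen. In lymph node the means of Cd8b1 and Prf1 were also lower in Id3- eTR than in Id3+ cTR. Neither gene was called over the whole span in either tissue. The part of such cells in the Klrg1 difference was not tested.

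Btla, the HVEM receptor, was the only one of the 7 called lower over the whole span, and only in spleen. The spleen values were 314, 276 and 360 CPM in Id3+ cTR, then 273, 223 and 271 CPM in Id3+ eTR, and finally 239, 182 and 217 CPM in Id3- eTR. Its lymph node levels were 280, 265 and 276 CPM, then 360, 347 and 344 CPM, then 259, 273 and 251 CPM. In spleen the end populations did not overlap, and in lymph node the Id3+ eTR libraries lay above all others of that tissue. The whole difference was -0.57 ± 0.11 (log2, SE) in the spleen (adjusted p = 0.00234) and -0.07 ± 0.11 in the lymph node (adjusted p = 0.796). Without the 3 spleen libraries that stand apart the spleen difference was -0.38 and not called (adjusted p = 0.157). In lymph node neither step was called: the first was 0.36 ± 0.11 (adjusted p = 0.0764, or 0.0274 by DESeq2) and the second -0.42 ± 0.11 (adjusted p = 0.0535, or 0.042 with the replicate block). B cells also express Btla. Of 12 B cell markers 9 were tested, and over the spleen span Cd79a (means 29.3 and 3.56 CPM) and Bank1 (29.4 and 5.96 CPM) were called lower and none higher, while Cd79b (77.4 and 105 CPM) and Cd22 (7.85 and 21.3 CPM) had higher means in Id3- eTR and were not called. In lymph node Bank1 was called lower and Ighm higher. The whole list summed to 882 to 1006 CPM in spleen Id3+ cTR and 833 to 898 CPM in spleen Id3- eTR, most of it Ighm (740 and 711 CPM), and its part in the Btla difference was not tested.

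Compared per kb of exon, Ctla4 had the highest mean level of the 7 genes in every group. In Id3+ cTR of spleen it was at 207 CPM per kb, followed by Btla at 93.3 and Pdcd1 at 18.4, with Tigit, Klrg1, Lag3 and Havcr2 at 3.76 or less. In Id3- eTR of spleen, Ctla4 (297 ± 20.6 CPM per kb, SD, n = 3), Tigit (292 ± 22.9) and Klrg1 (274 ± 21.8) lay within each other's spread, and Btla was at 62.5. In the highest library of that group, Ctla4 reached 814, Tigit 863 and Klrg1 856 counts per kb, all at the upper end of these libraries' range. The part of this upper end in their closeness, and in the size of the Tigit and Klrg1 differences, was not tested. No exon of any of the 7 genes overlapped an exon of another gene in GENCODE M21.

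The first step (Id3+ eTR minus Id3+ cTR) called 3 of the 7 genes higher in spleen, Pdcd1, Tigit and Klrg1, where 4.32% of all tested genes were called. In lymph node it called Ctla4 as well, 4 of 7, where 5.66% were called. The second step (Id3- eTR minus Id3+ eTR) called Tigit, Ctla4 and Klrg1 higher in spleen, where 3.28% of genes were called. In lymph node it called Havcr2 besides these, 4 of 7, where 2.62% were called. The medians of the 7 genes were 2.44 and 1.35 on the log2 scale at the first step and 0.64 and 0.86 at the second, in spleen and lymph node, against medians of all tested genes between -0.01 and 0.05. The lymph node first-step median and the spleen second-step median were the values of Lag3, which had few counts and was not called. The spleen first-step median also fell on a gene with few counts that was not called. Only the lymph node second-step median was the value of a called gene, Tigit. The comparisons share groups, so their counts are not independent.

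**Figure D2:**
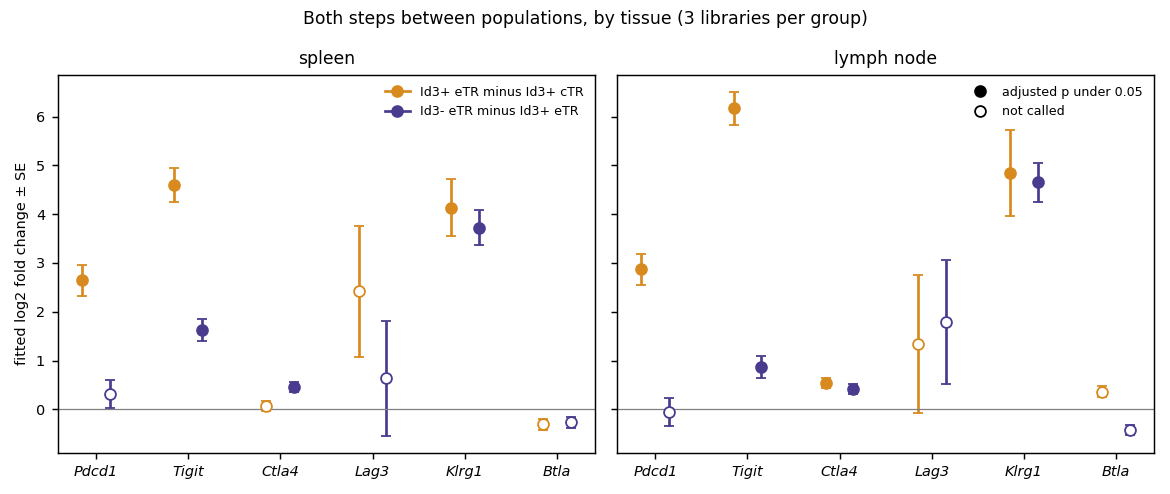
Fitted log2 fold change with its SE for both steps in spleen (left) and lymph node (right), with 3 libraries per group. Filled points passed an adjusted p of 0.05. Pdcd1 has its change in the first step, Klrg1 in both (fitted values for lymph node Klrg1 rest on 2 central counts), and Havcr2 is left out because neither Id3+ group of the lymph node held a count and the spleen Id3+ cTR group held 1.

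The steps were compared directly by testing the second minus the first. In spleen the second step was smaller on the log2 scale for Pdcd1, by -2.33 ± 0.49 (SE, adjusted p = 0.0411), and for Tigit, by -2.98 ± 0.49 (adjusted p = 0.0089), 2 of 7 genes where 0.595% of all tested genes were called. In CPM the order of the mean Tigit steps differed between the tissues. The spleen means were 3.45, 86.9 and 268 CPM, where the second step was the larger. The lymph node means were 2.22, 157 and 286 CPM, where the first was. Lymph node mouse 86 went the other way (0.661, 138 and 284 CPM), and no Tigit step was called different between the tissues. In lymph node the second step was smaller on that log2 scale for Pdcd1 (-2.92 ± 0.49, adjusted p = 0.004) and Tigit (-5.31 ± 0.47, adjusted p = 1.04e-05). For Btla the difference of the steps was -0.78 ± 0.19 (adjusted p = 0.0456), with a positive first step and a negative second one of similar size, neither called alone. These were 3 of 7 genes, where 1.76% were called. Klrg1 was not called in this test in spleen (-0.41 ± 0.81, adjusted p = 0.852) or in lymph node (-0.19 ± 0.67, adjusted p = 0.991). The spleen results depended on the setting. Without the 3 libraries that stand apart the values were -1.43 for Pdcd1 and -3.04 for Tigit. That fit keeps only mouse 86 in spleen Id3+ cTR, so these sizes alone do not show that the calls held. Leaving out any single library of the spleen other than Id3- eTR of mouse 84 and Id3+ eTR of mouse 86 gave an adjusted p of 0.0522 to 0.305 for Pdcd1. By limma-voom the adjusted p was 0.114 for Pdcd1 and 0.0815 for Tigit. Limma on the deposited normalized signal gave 0.126 and 0.0912. A fit of the spleen groups alone ended only the Pdcd1 call (adjusted p = 0.1155). RLE scaling, no filter, DESeq2 and the replicate block kept both calls. The Btla call in lymph node was lost without any 1 of its 9 libraries (adjusted p = 0.0628 to 0.188).

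The place of Id3+ eTR between the other populations was also read within each mouse, as a description, from log2 CPM with Id3+ cTR at 0% and Id3- eTR at 100%. Pdcd1 had reached 87.0 ± 7.65% in spleen and 102 ± 1.45% in lymph node (SD, n = 3 mice). Tigit had reached 72.8 ± 5.50% and 87.4 ± 1.24%. Klrg1 stood at 49.3 ± 0.487% and 39.1 ± 9.19%, which became 53.3% and 47.7% with a prior count of 0.5 in place of 2, since its central counts were few. Ctla4 stood at 1.75 ± 41.4% in spleen, where the mice ranged from -40.4% to 42.3%, and at 54.9 ± 20.3% in lymph node.

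**Figure D3:**
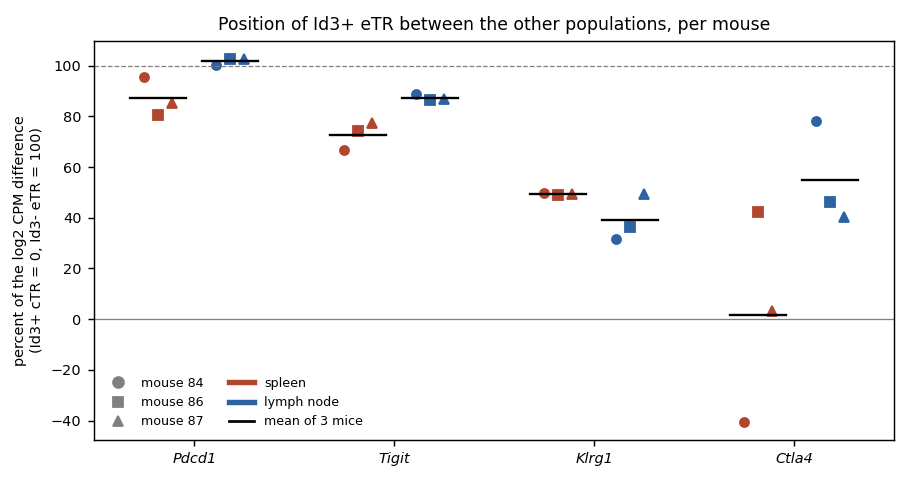
Position of Id3+ eTR on the log2 CPM scale between Id3+ cTR (0%) and Id3- eTR (100%), for each mouse (symbols) and tissue (colours), with the mean of 3 mice as a bar. The genes run from Pdcd1, near 100%, over Tigit to Klrg1 near 49.3% in spleen, and Ctla4 in spleen has no settled position.

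Between the tissues, none of the 7 genes was called in any population. In Id3+ cTR no gene reached an unadjusted p under 0.05 (edgeR; 0 calls by DESeq2 and by limma-voom), where 0.00804% of all tested genes were called and 967 had an unadjusted p under 0.05. In Id3+ eTR none was called, where 0.289% of all genes were called, and 5 of the 7 had an unadjusted p under 0.05, as did 1477 of all 12445 genes. As lymph node minus spleen on the log2 scale, Klrg1 there was at -1.84 ± 0.41 SE (adjusted p = 0.068), while Tigit (0.86 ± 0.23, adjusted p = 0.142) and Btla (0.45 ± 0.11, adjusted p = 0.0986) had positive values, and DESeq2 called all 3. In Id3- eTR none was called (0 by DESeq2), where 0.305% of all genes were called, and 3 of the 7 had an unadjusted p under 0.05, as did 984 of all genes. Klrg1 there was at -0.91 ± 0.31 (adjusted p = 0.377, or 0.00155 by limma-voom), without overlap between spleen and lymph node. Havcr2 was 3.26 times as high in lymph node as in spleen Id3- eTR, again without overlap and not called (adjusted p = 0.651).

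Whether a population difference itself differed between the tissues was tested with interaction terms, and none of the 7 genes was called by edgeR. For the whole span 0.0241% of all tested genes were called, and an unadjusted p under 0.05 was found for 2 of the 7 and for 856 of all 12445 genes (DESeq2 called 0 of the 7). For the first step 0% of all genes were called, and such a p was found for 3 of the 7 and for 1180 of all genes (DESeq2 called Ctla4 and Btla). For the second step 0% of all genes were called, and it was found for 2 of the 7 and for 750 of all genes (DESeq2 called 0 of the 7). The interaction values of the first step were 0.66 ± 0.16 for Btla (adjusted p = 0.279) and 1.56 ± 0.60 for Tigit (adjusted p = 0.449).

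The balance of each inhibitory receptor with the costimulatory receptor for the same ligand was described as a difference of log2 CPM within each library. For Ctla4 against Cd28 the spleen means were -0.24 (Id3+ cTR), -0.11 (Id3+ eTR) and 0.17 (Id3- eTR) and the lymph node means -0.21, -0.14 and 0.35. All 6 Id3- eTR libraries were above 0 and all 12 Id3+ libraries below it. For Tigit against Cd226 the means ran -4.87, -0.94 and 0.46 in the spleen groups and -5.73, 0.18 and 0.76 in the lymph node groups. These values compare libraries and not the amounts of 2 transcripts, whose lengths differ. Cd226 was called higher over the whole span in spleen only (0.66 ± 0.20 SE, adjusted p = 0.041, or 0.0967 by limma-voom), a call lost without any single one of 5 of the 6 libraries (adjusted p = 0.056 to 0.18). Cd28 was called higher in lymph node (0.40 ± 0.10, adjusted p = 0.0139, or 0.056 without the Id3- eTR library of mouse 87) and not in spleen (0.12 ± 0.10, adjusted p = 0.538).

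**Figure D4:**
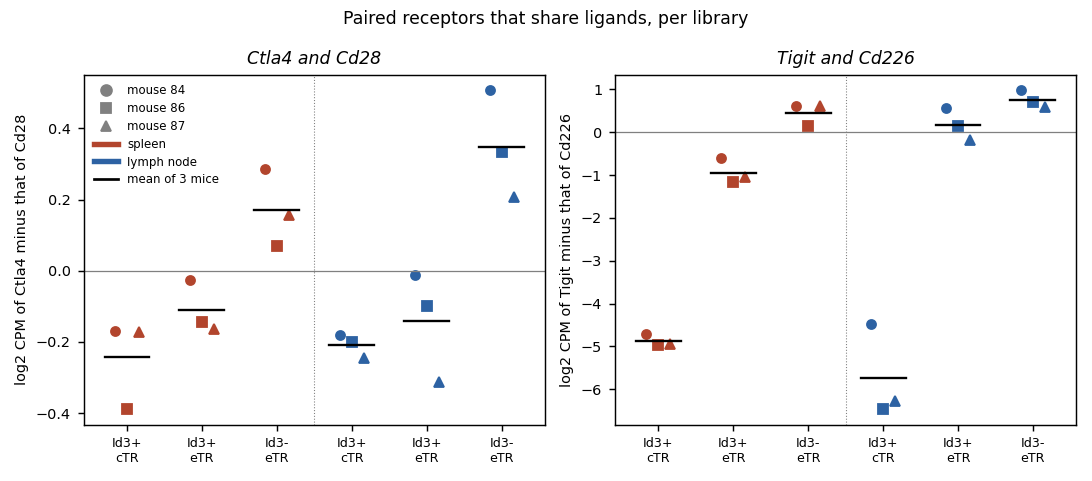
Difference in log2 CPM between Ctla4 and Cd28 (left) and between Tigit and Cd226 (right) in every library, by population, tissue (colour) and mouse (symbol), with the mean of 3 mice as a bar. The Ctla4 difference is above 0 only in the 6 Id3- eTR libraries, and the Tigit difference moves from a mean of -4.87 in spleen Id3+ cTR to 0.46 in spleen Id3- eTR.

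Among 15 listed ligands and binding partners, 9 were tested. The span from Id3+ cTR to Id3- eTR called 3 higher and 1 lower in each tissue. Of all tested genes, 12.3% were called over this span in spleen and 12.9% in lymph node. The median of the 9 was 0.38 in spleen and 0.55 in lymph node on the log2 scale. Pdcd1lg2, which encodes the PD-1 ligand PD-L2, was at 21.5, 26.0 and 18.5 CPM in spleen Id3+ cTR and 59.7, 70.2 and 80.6 CPM in Id3- eTR (1.66 ± 0.33 SE, adjusted p = 0.00248), and rose by 1.69 ± 0.33 in the lymph node (adjusted p = 0.00189). Lgals3, whose product galectin-3 binds LAG-3, had no count in spleen Id3+ cTR and was at least 85.9-fold higher in Id3- eTR, and it was 72.5-fold higher in the lymph node (adjusted p = 0.000479 and 0.000283). Pvr, the TIGIT ligand, fell by 0.80 in spleen and by 0.96 in the lymph node (adjusted p = 0.0166 and 0.00402). Cd80 was called in spleen only (2.26 ± 0.62, adjusted p = 0.0231, against 1.82 ± 0.59, adjusted p = 0.0529, in lymph node). Without the 3 spleen libraries that stand apart the spleen calls of Pdcd1lg2 (adjusted p = 0.114), Cd80 (0.269) and Pvr (0.194) were lost. Without single libraries, the Pvr call was lost for 3 of 6 (0.0526 to 0.0888) and the Cd80 call for 4 of 6 (0.0574 to 0.1), and limma-voom gave 0.0715 for Cd80. Myeloid cells also make several of these ligands. The 12 myeloid markers summed to 5.19 to 36.4 CPM in spleen Id3+ cTR, 82.7 to 86.2 CPM in spleen Id3- eTR, 9.26 to 33.3 CPM in lymph node Id3+ cTR and 127 to 170 CPM in lymph node Id3- eTR. Fcer1g and Tyrobp were called higher over the span in both tissues and Cd68 in spleen, of 4 tested. Lyz2 averaged 10.3 and 18.4 CPM in the spleen groups and 10.4 and 106 CPM in the lymph node groups, S100a8 was at 0 in all 18 libraries and Clec9a held 2 counts, and the part of such cells in the ligand differences was not tested.

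Of the 7 receptors that share those ligands, 6 were tested, with 3 called higher and 1 lower over the span in each tissue. The share of all tested genes called was 12.3% in spleen and 12.9% in lymph node. The medians of the 6 were 0.39 in spleen and 0.38 in lymph node. Icos, a costimulatory receptor of the CD28 family, rose at both steps: from 187, 181 and 211 CPM over 264, 341 and 349 CPM to 788, 871 and 778 CPM in spleen, a whole difference of 2.08 ± 0.11 SE (adjusted p = 1.82e-09), and by 2.42 ± 0.11 in the lymph node (adjusted p = 4.09e-10). Icos was also higher in lymph node than in spleen within Id3+ eTR (0.96 ± 0.11, adjusted p = 0.00039) and within Id3- eTR (0.64 ± 0.10, adjusted p = 0.0113). The latter was lost without the lymph node Id3- eTR library of mouse 84 (adjusted p = 0.0575), and the former in a fit of its groups alone (0.0902). Such a fit also ended the Icos call of the first step in spleen (adjusted p = 0.0753). Tnfsf14, a ligand of HVEM like BTLA, was 28.6-fold higher in spleen Id3- eTR than in Id3+ cTR (counting interval 9.56 to 141, adjusted p = 0.00241) and 91.3-fold higher in lymph node (interval 16.0 to 3645, adjusted p = 0.000753). Cd96, a PVR receptor, fell by 0.70 in the spleen (adjusted p = 0.00132) and by 0.54 in the lymph node (adjusted p = 0.00984). Without the 3 spleen libraries that stand apart, the spleen calls of Tnfsf14 (adjusted p = 0.074, and 0.0566 by limma-voom in all libraries) and Cd96 (0.0974) were lost.

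Of 15 other inhibitory receptors of T cells, 10 were tested. Over the span 1 was called higher and 2 lower in spleen, where 12.3% of all tested genes were called. In lymph node 2 were higher and 2 lower, where 12.9% were called. The medians were 0.08 and -0.15. Cd200r1, the receptor for CD200, rose by 1.55 ± 0.16 SE in the spleen (adjusted p = 4.14e-06) and by 1.66 ± 0.15 in the lymph node (adjusted p = 1.35e-06). Pecam1, which carries inhibitory motifs in its tail, fell by 1.83 and 1.89 (adjusted p = 1.55e-06 and 8.83e-07). Cd72 fell by 0.57 and 0.58 (adjusted p = 0.0123 and 0.0104), lost without the 3 spleen libraries that stand apart (0.117) and without the Id3- eTR library (0.0866) or the Id3+ cTR library (0.0542) of mouse 87 in spleen, or the Id3- eTR library of mouse 84 in lymph node (0.0606). The part of B cells, whose markers are given with Btla above, in the Cd72 difference was not tested. Cd101 was called in lymph node only (1.15 ± 0.34, adjusted p = 0.0312). Leaving out any of 5 of the 6 libraries ended the Cd101 call (0.0587 to 0.117).

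Of 18 signalling and trafficking partners, 17 were tested. Over the span 2 were called higher and 3 lower in spleen, where 12.3% of all tested genes were called. In lymph node 3 were higher and 1 lower, where 12.9% were called. The medians were 0.07 and 0.08. Lrba, which keeps CTLA-4 from degradation in lysosomes, rose by 1.49 ± 0.22 SE in the spleen (adjusted p = 0.000178) and by 1.67 ± 0.21 in the lymph node (adjusted p = 4.12e-05). Lax1, an adaptor that restrains antigen receptor signalling, rose by 1.43 ± 0.14 and 0.97 ± 0.14 (adjusted p = 3.47e-06 and 0.000115). Ptpn6, which encodes the phosphatase SHP-1, fell by 0.51 and 0.65 (adjusted p = 0.011 and 0.00168), with the spleen call lost without the Id3- eTR library (0.0686) or the Id3+ cTR library (0.074) of mouse 87, and without the 3 spleen libraries that stand apart (0.0532). Trat1, an adaptor that stabilises the antigen receptor and CTLA-4 at the surface, fell by 1.11 in the spleen (adjusted p = 0.000306) and was at -0.07 ± 0.17 in the lymph node (adjusted p = 0.857).

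For each gene, the other genes with the most similar profile were found by Pearson r of log2 CPM over the 18 libraries, among 8890 candidates, as a description of libraries that share their groups and mice. For Pdcd1, Tigit (r = 0.961) and Bmp7 (0.961) were among the 3 most similar. Tigit was nearest to Rilpl2 (0.980), Eea1 (0.974) and Cela1 (0.971), and Ctla4 to Trp53inp1 (0.960), Prr13 (0.954) and S100a11 (0.927). Klrg1 was nearest to Sla (0.964), Sdcbp2 (0.958) and Rbl2 (0.947). Havcr2 was nearest to Prdm1 (0.946), Sgms1 (0.945) and Ccr2 (0.939), and Ccr2, a chemokine receptor, averaged 313 CPM in spleen Id3- eTR and 0.377 CPM in spleen Id3+ eTR. Lag3 (Fkbp5 0.882, Rnpep 0.871, Trpv2 0.854) and Btla (Mapk12 0.803, Pgls 0.788, Gltp 0.783) had no neighbour as near as those. Among the 7 genes themselves, Pdcd1 and Tigit were the most alike (0.961), and Btla was negative with each of the others, from -0.24 with Pdcd1 to -0.56 with Klrg1.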

How the data were processed

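RNA from 18 libraries of 500 sorted cells each was amplified with SMART-Seq v4 and made into libraries with a modified NexteraXT protocol, per the labels' protocols. The authors deposited whole-number counts per gene, and a second table of normalized signal; within 0.1%, 99.982% of its entries were the deposited count multiplied by a constant of that library. Tools listed, with no order or role, are SAMtools, Picard, FastQC, HTSeq 0.4.1, TopHat and Bowtie, per the submitters' processing notes. The build of the alignment and the strand setting are not given in the sources used here.

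Results come from the counts. Of the 37991 identifiers, 32919 were matched to a symbol, and those without one held 0.891% of all counts. After filterByExpr (minimum count 10), 12445 genes were fitted in 1 model of the 6 groups (12 residual degrees of freedom) with TMM scaling and the robust quasi-likelihood F test of edgeR 4.0.16 (R 4.3.3), two-sided, with Benjamini-Hochberg adjustment over all genes tested. Log2 CPM used a prior count of 2. The procedure was tested on simulated data. Ratios with 1 to 3 counts in a group carry exact 95% counting intervals, and a group at 0 was set to 3 counts in all.

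The 7 genes and all lists were chosen with earlier results of these data known. From each pathway list up to 4 genes are named, those called over the whole span in both tissues in the same direction with the largest mean change, filled from genes called in 1 tissue; Cd28 and Cd226 are always named. The likeness of profiles was searched among tested genes averaging 3 or more in log2 CPM, and the 3 nearest to each receptor are named, except 1 that is not reported here. The same 3 mice gave every group, so mouse numbers pair the libraries. The deviations from group means correlated at 0.0200 on average between libraries of the same mouse and at -0.0100 between mice. Subtracting the group means ties the second value to the first, so its negative sign is not a separate result. Alternatives were RLE scaling, no filter, DESeq2 1.42.0, limma-voom and limma on the deposited normalized signal (log2 of value plus 1, limma 3.58.1), a fit of the compared groups alone, mouse as a replicate block, a prior count of 0.5, leaving out each library, and leaving out the 3 spleen libraries that stand apart. Gene lengths are exon unions from GENCODE M21.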

Additional observations from a re-analysis of the deposited data

How the results depend on the processing

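Of 1521 refits of single genes among the 7, 1448 kept their call or the absence of one, 47 lost a call and 26 gained one. Where either fit was called, 0 changed direction. Values called in neither fit could change sign, as for Klrg1 in the whole-span interaction (log2 values from -3.48 to 4.14). The number of called members changed as follows. The spleen span had 6, and 5 without the 3 spleen libraries that stand apart. The spleen first step had 3, and 2 with only the compared groups or without those 3 libraries, and the lymph node first step had 4, and 5 with DESeq2, with only the compared groups or without those 3. The spleen second step had 3, and 4 without a filter, with DESeq2, limma-voom or limma on the authors' table, 2 with only the compared groups and 2 to 3 with 1 library left out. The lymph node second step had 4, and 5 with DESeq2, limma-voom or without the 3 libraries, 2 with limma on the authors' table and 2 to 4 with 1 library left out. Lymph node against spleen in Id3+ eTR had 0, and 1 without a filter, 3 with DESeq2, 1 with limma-voom and 0 to 1 with 1 library left out; in Id3- eTR it had 0, and 1 with limma-voom or with only the compared groups. The first-step interaction had 0, and 2 with DESeq2. The second step against the first in spleen had 2, and 0 with limma-voom, 0 with limma on the authors' table, 1 with only the compared groups, 0 without the 3 spleen libraries that stand apart, and 1 to 2 with 1 library left out; in lymph node it had 3, and 2 without a filter or with any 1 lymph node library left out. With mouse as a replicate block (10 residual degrees of freedom), the number of called members was the same in every comparison, 4 in the lymph node second step with Btla in place of Tigit, and no other call among the 7 genes changed. Among the named pathway genes the block ended the calls of Pdcd1lg2 and Trat1 at the spleen first step (adjusted p = 0.0557 and 0.0732), Tbx21 at the spleen second step (0.0544) and Cd200r1 between tissues in Id3+ eTR (0.0587), and added Cd80 in the lymph node span (0.0246).

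Counts over all genes moved by more than 1.5 times in these cases. The spleen span of 1526 became 730 without the 3 spleen libraries. The spleen first step of 538 became 1023 with DESeq2, 268 with limma-voom, 145 with only the compared groups, 69 without the 3 libraries and 256 to 645 with 1 left out; the lymph node first step of 705 became 458 at the lowest with 1 left out. The second step of 408 in spleen became 735 (DESeq2), 171 (compared groups) and 267 at the lowest with 1 left out, and that of 326 in lymph node 554 (DESeq2) and 192. The tissue counts of 1, 36 and 38 in Id3+ cTR, Id3+ eTR and Id3- eTR ranged from 0 to 71, from 0 to 195 and from 15 to 145 over all alternatives, the interaction counts of 3, 0 and 0 from 1 to 49, from 0 to 66 and from 0 to 37, and the step contrasts of 74 and 219 from 4 to 334 and from 119 to 412, the highest being DESeq2 in each.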

Other observations

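Transcription factors linked to inhibitory receptor genes were the pathway list with the most calls. Of 15 listed, 14 were tested, and over the whole span 8 were called higher in each tissue (Prdm1, Maf, Tox, Tox2, Nfatc1, Nfatc2, Batf and Tbx21), with 2 lower in spleen (Tcf7 and Foxo1) and 1 in lymph node (Tcf7), where 12.3% and 12.9% of all tested genes were called. The median of the 14 was 0.95 in spleen and 1.09 in lymph node on the log2 scale. The list was chosen with earlier results of these data known.

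Prdm1, which encodes the repressor Blimp-1 of late effector lymphocytes, did not pass the test at the first step and rose at the second. It was at 4.55, 20.8 and 24.0 CPM in spleen Id3+ cTR, 24.8, 16.7 and 25.3 CPM in Id3+ eTR, and 160, 184 and 219 CPM in Id3- eTR. In lymph node it was at 20.8, 9.59 and 16.7 CPM, then 14.3, 13.5 and 7.96 CPM, then 310, 288 and 320 CPM. The second step was 3.07 ± 0.35 (log2, SE) in the spleen (adjusted p = 5.6e-05) and 4.69 ± 0.38 in the lymph node (adjusted p = 1.47e-06). It exceeded the first by 5.10 ± 0.69 in the lymph node (adjusted p = 0.000671) and by 2.67 ± 0.64 in spleen, which was not called (adjusted p = 0.0746). Maf, a factor of effector T cells, rose at both steps, by 3.61 ± 0.29 and 1.89 ± 0.22 in the spleen (adjusted p = 1.47e-06 and 7.42e-05) and by 3.07 ± 0.25 and 1.67 ± 0.22 in the lymph node (adjusted p = 1.11e-06 and 0.000201).

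Tox2, a factor known from helper and exhausted T cells, rose at the first step. It was at 0.379, 0 and 0 CPM in lymph node Id3+ cTR (1 count) and at 61.6, 66.1 and 76.5 CPM in Id3+ eTR, a ratio of 584 with a counting interval of 104 to 23105 (adjusted p = 6.64e-05), and its second step there was -0.11 ± 0.55 (adjusted p = 0.973). In spleen the first step was 4.26 ± 0.74 (adjusted p = 0.00347, or 0.0902 by limma-voom and 0.0713 in a fit of those groups alone). Tbx21, the T-bet gene, was at 58.6, 75.3 and 21.9 CPM in spleen Id3- eTR and at 9.04, 9.86 and 8.56 CPM in lymph node Id3- eTR. That tissue difference was not called by edgeR (-2.50 ± 0.63, adjusted p = 0.134) and was called by DESeq2 (adjusted p = 0.0109).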
